A study of Mus musculus with 9 samples.

Results

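The 273 genes described here stood highest at the middle of 3 stages of mouse reprogramming, among 19937 genes measured. They were selected on the measured values themselves. A gene was taken when its mean at day 3 lay at least 2-fold, or 1 on the log2 scale, above the fibroblast mean and above the iPS mean. Of all genes, 291 passed both folds, which is 1.46% of the genes measured. Of these, the rule leaves out 14 by name, among them Myc, Egr2, Nr4a1, Dusp6 and Ereg, and 4 as small RNA, predicted or clone-named genes. With 3 stages measured, the peak is one among these stages and says nothing of times in between.

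The study followed secondary reprogramming, in which mice made from reprogrammed cells carry the reprogramming genes under doxycycline control in their body cells. The factors are Tet1, Sox2, Klf4 and c-Myc (TSKM), with Tet1, an enzyme that oxidises methylated cytosine, standing in for Oct4. The fibroblast group (3 arrays) held passage 4 fibroblasts of TSKM-iPS mice, grown in feeder medium. The TSKM-3D group (3 arrays) held the same kind of fibroblasts after 3 days of doxycycline. The iPS group (3 arrays) held induced pluripotent stem cells of passages 10 to 15 that came out of the TSKM system. All groups carry the strain label OG2-GFP/Rosa26-M2rtTA, the second part of which names the doxycycline-dependent activator placed at the Rosa26 locus. The medium changed together with the doxycycline, since the induced cells were moved at passage 4 to ES medium, which contains LIF, so doxycycline and medium cannot be told apart. The iPS cells grew in the same ES medium on mitomycin C treated feeder fibroblasts, which were removed by letting them settle for 0.5 h. Total RNA was labelled with biotin and hybridised to an Affymetrix whole-transcript mouse array, and values are log2 signals. The labels do not tell whether replicate arrays were separate cultures or mice, so p-values here weigh array-to-array spread alone, and that spread may be technical.

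The arrays of a group resembled each other, with correlations over all genes of 0.998 within fibroblasts, 0.991 to 0.996 within day 3 and 0.995 to 0.996 within iPS cells. The signals of 16 pluripotency markers were summed on the linear scale, so the brightest weigh most. The log2 of this sum was 9.39 to 9.42 on fibroblast arrays, 9.76 to 10.01 on day-3 arrays and 15.40 to 15.44 on iPS arrays. Of the introduced factors, the gene row for Sox2 averaged 5.15 on fibroblast arrays, 6.54 on day-3 arrays and 11.52 on iPS arrays, and that for Myc averaged 9.84, 11.44 and 9.02 in the same order. Klf4 averaged 8.53 at day 3 and 8.49 in fibroblasts, and Tet1 averaged 6.97 at day 3 and 8.10 in fibroblasts, so the Tet1 row goes against an induction of Tet1. An array row need not report the introduced copy, and the labels are used as given. The third fibroblast array carries a cell type label of induced cells, while its title, source and passage say fibroblast. It correlated at 0.998 with the other fibroblast arrays. Without it the rule gives 276 genes, 272 of them among the 273.

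Fibroblasts on the way to pluripotency are known to pass through intermediate states, in which some genes are active that neither the starting cell nor the end state uses much. The immediate early genes are switched on within minutes of a stimulus without new protein synthesis, and many encode transcription factors or inhibitors of signalling. The p53 and retinoblastoma pathways are known barriers that stop many fibroblasts from completing the change.

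Promoter sequence is shown for 2 kinds of member: immediate early or arrest genes that hold a motif named for a known regulator, and a pair of neighbouring members that start back to back. Sequences are those of RefSeq on GRCm38.p6, printed 5′ to 3′ on the gene's own strand. The cAMP response element TGACGTCA binds CREB and ATF proteins, and it is in capitals in windows of Maff, a small MAF transcription factor, Plk2, a stress-induced kinase, and Btg2, an inhibitor of proliferation. It starts 29 bases before the transcription start of Maff, 62 before that of Plk2 and 166 before that of Btg2.
Maff (chr15:79347400-79347522, plus strand): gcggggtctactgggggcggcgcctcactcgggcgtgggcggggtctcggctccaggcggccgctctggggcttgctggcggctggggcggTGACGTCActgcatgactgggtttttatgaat
Plk2 (chr13:110394924-110395046, plus strand): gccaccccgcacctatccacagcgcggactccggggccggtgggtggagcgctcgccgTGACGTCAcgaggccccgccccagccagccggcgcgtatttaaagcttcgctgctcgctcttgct
Btg2 (chr1:134079254-134079375, minus strand): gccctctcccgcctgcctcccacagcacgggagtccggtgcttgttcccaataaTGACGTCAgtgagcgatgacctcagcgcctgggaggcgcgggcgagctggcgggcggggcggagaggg
Ccn1, a secreted matricellular protein, has a TATA box (TATAAA) 25 bases before its start and, 103 bases before it, CATTCC, which is the TEAD site GGAATG read on the opposite strand. Both are in capitals.
Ccn1 (chr3:145649983-145650105, minus strand): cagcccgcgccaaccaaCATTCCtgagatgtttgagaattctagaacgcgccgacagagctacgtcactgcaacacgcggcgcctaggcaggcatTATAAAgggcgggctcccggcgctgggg

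Map2k3, a kinase that activates p38, and Map2k3os, a transcript of the opposite strand, are both members and start head to head on chromosome 11. Only 186 bases separate the starts, with Map2k3os read leftwards and Map2k3 rightwards. The stretch has 67.7% G and C and holds 3 GC boxes (GGGCGG), in capitals.
Map2k3os to Map2k3 (chr11:60931868-60932053, plus strand): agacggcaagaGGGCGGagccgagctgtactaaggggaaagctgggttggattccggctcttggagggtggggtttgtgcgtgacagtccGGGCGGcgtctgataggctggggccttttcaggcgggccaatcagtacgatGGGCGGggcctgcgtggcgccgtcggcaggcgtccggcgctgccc
On the arrays Map2k3os read 5.79, 5.64 and 5.82 in fibroblasts, 7.16, 6.48 and 7.22 at day 3, and 5.75, 5.71 and 5.81 in iPS cells. Map2k3 read 10.04, 9.96 and 9.97 in fibroblasts, 10.96, 11.06 and 11.04 at day 3, and 9.20, 9.42 and 9.47 in iPS cells. As in every member, both genes of the pair were highest on the day-3 arrays. Map2k3os lay closest to the other groups on the second day-3 array, where Map2k3 was at its highest. With array medians set equal, Map2k3 fell just short of the rule.

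The peaks differed widely in height. The day-3 mean exceeded the fibroblast mean by a median of 1.52 on the log2 scale, up to 5.37, and the iPS mean by a median of 1.99, up to 5.24. Peak height, the smaller of the 2 differences, had a median of 1.39, was at least 3 in 12 members and at least 2 in 51, and lay below 1.5 in 161. For 189 members the day-3 mean lay further from iPS cells than from fibroblasts. These values chose the members and are descriptions. For all 273 members the 3 day-3 arrays lay above the 6 other arrays, a separation that 9.44% of all genes showed. The rule used the same values, so nothing is read from that count. The gap between the lowest day-3 array and the highest other array had a median of 1.15 and was smallest, at 0.43, for Hmgb3, a chromatin protein.

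**Figure D1:**
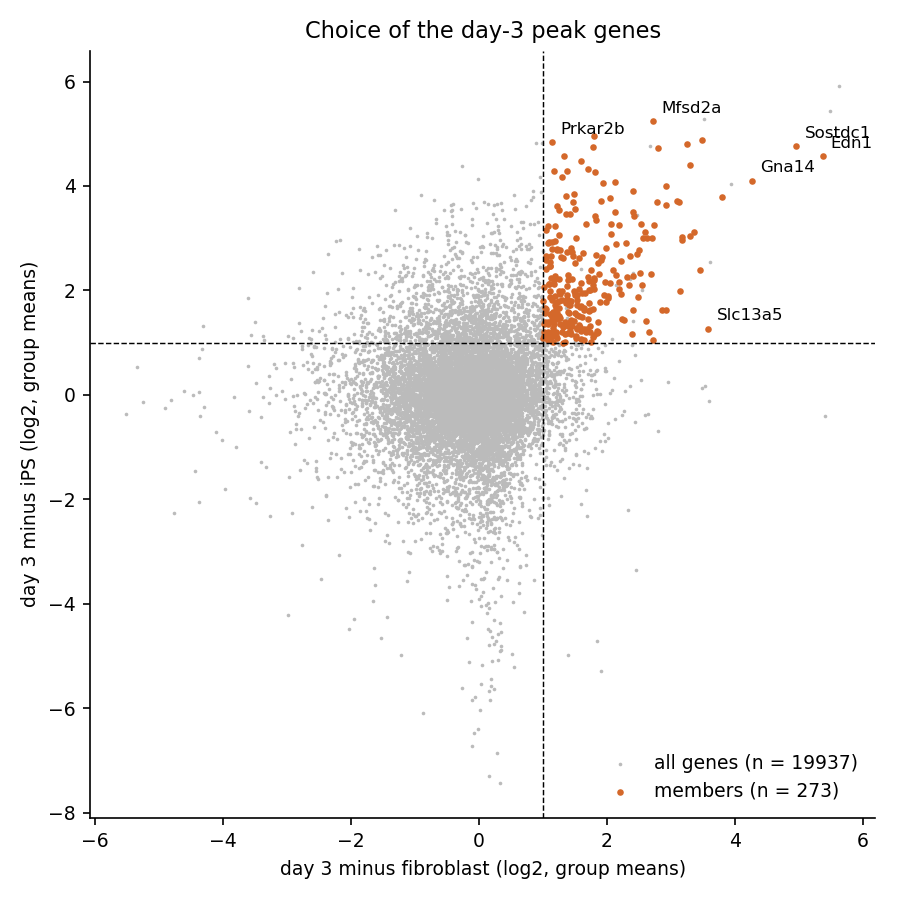
Difference of group means, day 3 minus fibroblast on the horizontal axis and day 3 minus iPS on the vertical axis, both in log2, for 19937 genes (grey) and the 273 members (orange). Dashed lines mark the threshold of 1 in each direction. Grey points beyond both lines are the genes that the rule leaves out, by name or as small RNA, predicted or clone-named genes.

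The values were well inside the range of the arrays. The median member had a mean of 7.14 in fibroblasts, 9.005 in day-3 cells and 6.56 in iPS cells. In 57 members (20.9%) both other groups' means lay under the median of the array, against 37.1% of all genes. The day-3 mean, whatever the other groups, lay under it in 11 members (4.03%), against 39.9% of all genes. The rule favours genes high at day 3, which lowers that share. Signal over background was not measured here, so the lowest readings are taken as array values only. In bulk RNA, more cells that express a gene and more RNA per cell cannot be told apart.

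Akr1c18 and Aldh1a7, left out by name, had peak heights of 5.63 and 5.44. Among the members the highest peak, at 4.76, belonged to Sostdc1, a secreted antagonist of BMP that also binds WNT co-receptors. It read 5.20, 5.04 and 5.21 in fibroblasts, 10.14, 9.95 and 10.23 at day 3, and 5.47, 5.24 and 5.32 in iPS cells. The day-3 mean was 31.1-fold above the fibroblast mean and 27.1-fold above the iPS mean, while the fibroblast and iPS arrays lay close to each other. Edn1 encodes endothelin-1, a vasoconstrictor peptide that is also a growth factor for mesenchymal cells. It read 5.79, 5.42 and 5.62 in fibroblasts, 10.90, 10.92 and 11.12 at day 3, and 6.42, 6.36 and 6.43 in iPS cells. The difference from fibroblasts, 41.4-fold, was the largest among the members, and that from iPS cells was 23.9-fold. Adm, which encodes the vasodilator adrenomedullin, was the other member on a list of 30 vasoactive peptide genes, with 9.80, 9.78 and 9.78 in fibroblasts, 10.73, 10.99 and 10.78 at day 3, and 8.21, 7.45 and 7.35 in iPS cells. Its peak height was 0.99 with array medians set equal, just under the threshold. Of the 30 listed genes, 2 stood at least 2-fold higher at day 3 than in fibroblasts and 5 lower.

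G protein signalling supplied 5 of 46 listed genes (10.9%, where members make up 1.37% of all genes). Of the 46, 5 stood at least 2-fold higher at day 3 than in fibroblasts and 6 lower, and the median difference was -0.05. Gna14, an alpha subunit of the Gq class that couples receptors to phospholipase C, read 5.15, 5.53 and 5.20 in fibroblasts, 9.57, 9.41 and 9.71 at day 3, and 5.54, 5.58 and 5.27 in iPS cells. Its day-3 mean was 19.3-fold above fibroblasts and 17.1-fold above iPS cells. Rgs16, which speeds the switching-off of Gi and Gq subunits, read 9.59, 9.54 and 9.61 in fibroblasts, 12.45, 12.55 and 12.50 at day 3, and 8.61, 8.60 and 8.30 in iPS cells. Rgs8 lies next to Rgs16 on chromosome 1 and peaked 1.17 above fibroblasts and 1.35 above iPS cells. Plcb1, a phospholipase C that Gq activates, and Gng10, a gamma subunit, completed the list. Adcy5, an adenylyl cyclase that makes cyclic AMP, stood 6.52-fold above fibroblasts and 8.05-fold above iPS cells. Among receptors counted as a family by symbol, 5 of 179 were members (2.79%), while 0 of 1027 olfactory receptors were. The 5 were Lpar6 and Lpar4 for lysophosphatidic acid, P2ry1 for ADP, S1pr1 for sphingosine 1-phosphate, and Gpr161. Of the 179, 5 stood at least 2-fold higher at day 3 than in fibroblasts and 15 lower. Lpar6 read 8.89, 8.84 and 8.95 in fibroblasts, 11.54, 11.48 and 11.47 at day 3, and 8.63, 8.43 and 8.08 in iPS cells. It overlaps Rb1 on chromosome 14, which was also a member, and whether their rows share sequence was not tested.

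**Figure D2:**
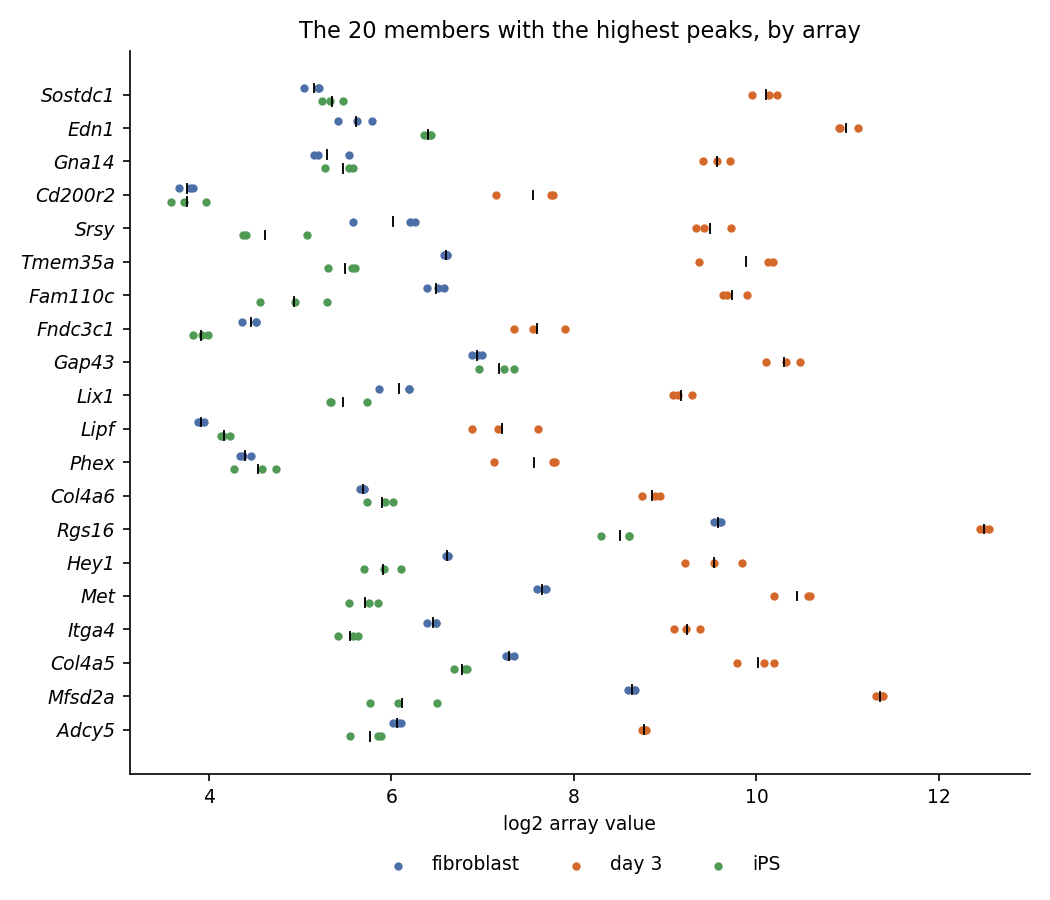
Log2 array values of the 20 members with the highest peaks, from Sostdc1 at the top down, with 1 point per array (3 fibroblast, 3 day-3 and 3 iPS arrays) and a short line at each group mean. The day-3 points of each gene lie to the right of the 6 others. Edn1 reads 10.90 to 11.12 at day 3.

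Immediate early genes were the list with the largest share of members, 8 of 33 (24.2%), and 11 of 33 passed both folds before Egr2, Nr4a1 and Myc were left out. Lists were drawn up with earlier results of these data known, so the share is a description. Maff read 7.11, 7.19 and 7.24 in fibroblasts, 9.26, 9.20 and 9.35 at day 3, and 6.94, 6.70 and 6.98 in iPS cells. Its peak was the highest of the 8, at 4.25-fold above fibroblasts and 5.26-fold above iPS cells. The other 7 were Ier5, Btg2, Egr3, Atf3, Ccn1, Klf6 and Ccn2. Egr3, a zinc finger factor that acts downstream of growth factor signals, read 7.09, 7.14 and 7.13 in fibroblasts, 8.77, 8.79 and 9.001 at day 3, and 7.86, 7.57 and 7.55 in iPS cells. Atf3, a stress-induced relative of CREB, read 7.26, 7.06 and 7.08 in fibroblasts, 9.65, 10.005 and 9.72 at day 3, and 8.60, 8.59 and 8.59 in iPS cells. Atf3 therefore differed more from fibroblasts (6.31-fold) than from iPS cells (2.29-fold), whereas Maff, Ier5, Btg2, Ccn1 and Klf6 differed more from iPS cells. Ccn1 and Ccn2 are matricellular proteins known as targets of YAP and TEAD. Together with Klf6 they had the lowest peaks of the list: Ccn1 stood 2.16-fold above fibroblasts and 2.62-fold above iPS cells, and Ccn2 2.24-fold and 2.01-fold. Over the whole list, including genes that are not members, 15 of 33 stood at least 2-fold higher at day 3 than in fibroblasts and 1 lower, where 3.25% of all genes were higher and 7.58% lower, and the median difference was 0.96, against 0.05 over all genes.

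**Figure D3:**
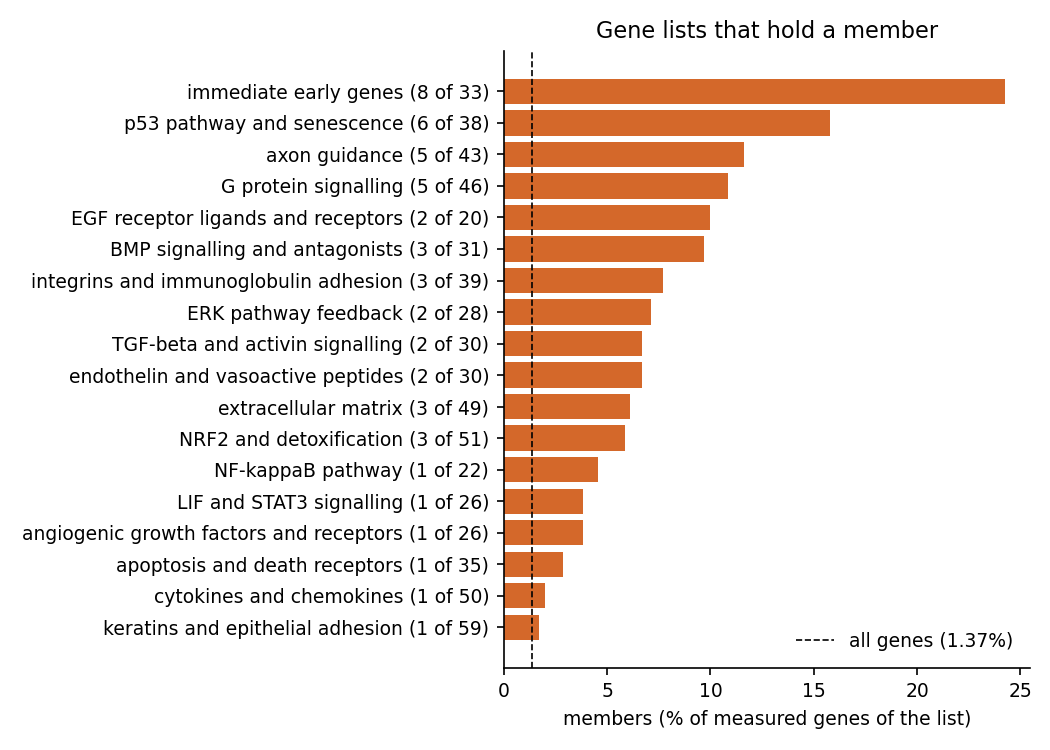
Members as a percentage of the measured genes of each list, for the lists that hold at least 1 member, with the counts beside each name and a dashed line at the share over all genes (1.37%). Immediate early genes stand at 24.2% and the p53 and senescence list at 15.8%.

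The p53 and senescence list had the next largest share, 6 of 38 (15.8%), with Fas and Perp passing both folds but left out by name. Cdkn2a, whose transcripts encode the CDK4/6 inhibitor p16 and the p53 activator p19ARF, read 8.43, 8.42 and 8.25 in fibroblasts, 9.89, 9.69 and 10.03 at day 3, and 8.02, 7.93 and 7.91 in iPS cells. An array row of this gene does not separate the 2 products. Rb1, the retinoblastoma protein that holds cells before S phase, read 7.97, 7.99 and 7.90 in fibroblasts, 9.34, 9.19 and 9.59 at day 3, and 5.82, 5.93 and 5.97 in iPS cells. As in every member, the day-3 values of both genes lay above both other groups without overlap, so nothing is read from that. Plk2 and Btg2 also belong here, and so do Igfbp3, an IGF-binding secreted protein, and Dcxr, a carbonyl reductase. Mdm2, the ubiquitin ligase that degrades p53, fell just outside, with 11.66 at day 3 and 10.67 in fibroblasts, a difference of 0.99.

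Ligands and receptors of growth factor pathways were present in small numbers. In the EGF list, 2 of 20 genes were members, and Ereg passed both folds but was left out by name. Hbegf, a ligand of the EGF receptor and of ERBB4, read 8.99, 8.96 and 9.09 in fibroblasts, 11.35, 11.29 and 11.41 at day 3, and 9.31, 9.17 and 9.25 in iPS cells. Erbb4, a receptor for HBEGF and neuregulins, stood 3.00-fold above fibroblasts and 2.45-fold above iPS cells. Met, the receptor for hepatocyte growth factor, was the member among 26 angiogenic growth factor and receptor genes. It read 7.70, 7.68 and 7.59 in fibroblasts, 10.56, 10.20 and 10.58 at day 3, and 5.75, 5.85 and 5.53 in iPS cells. Lif, the cytokine that keeps mouse pluripotent cells undifferentiated and is supplied by ES medium, read 6.69, 6.50 and 6.62 in fibroblasts, 8.14, 7.95 and 7.88 at day 3, and 6.50, 6.46 and 6.25 in iPS cells. Gdnf, a ligand of the RET receptor complex, stood 2.69-fold above fibroblasts and 2.32-fold above iPS cells. In the whole EGF list, 3 genes stood at least 2-fold higher at day 3 than in fibroblasts and 2 lower. For the angiogenic list these counts were 1 and 6.

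Inhibitors of signalling were among the members as well. Of 28 ERK feedback genes 2 were members, Phlda1 and the ERK phosphatase Dusp5, which stood 4.66-fold and 3.47-fold above fibroblasts. Dusp6 passed both folds but was left out by name. Of 31 BMP genes 3 were members, Sostdc1 with the BMP targets Id1 and Id3, whose products block basic helix-loop-helix factors. Id3 read 9.01, 8.96 and 8.77 in fibroblasts, 10.89, 10.91 and 11.01 at day 3, and 9.27, 9.16 and 8.79 in iPS cells. Id1 read 8.72, 8.76 and 8.79 in fibroblasts, 10.11, 10.28 and 10.23 at day 3, and 8.25, 7.92 and 7.80 in iPS cells. So Sostdc1, Id1 and Id3 were high on the same arrays, as all members were. Id4 also passed both folds, at 2.41 above fibroblasts and 1.42 above iPS cells, but was left out by name. Of 30 TGF-beta and activin genes 2 were members, the activin antagonist follistatin (Fst) and the SMAD corepressor Skil. Fst read 9.60, 9.61 and 9.61 in fibroblasts, 11.41, 11.42 and 11.43 at day 3, and 7.88, 7.99 and 8.10 in iPS cells. Nfkbia, the inhibitor that holds NF-kappaB in the cytoplasm, was the member among 22 NF-kappaB genes, at 3.61-fold above fibroblasts and 2.28-fold above iPS cells. Tnfaip3 passed both folds but was left out by name. In the whole ERK feedback list, 5 genes stood at least 2-fold higher at day 3 than in fibroblasts and 5 lower. These counts were 4 and 5 for BMP, 3 and 7 for TGF-beta and activin, and 2 and 5 for NF-kappaB.

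Axon guidance genes gave 5 of 43 (11.6%), namely Robo2, a receptor for SLIT proteins, the ephrin receptors Epha5 and Epha7, the ephrin Efnb2, and Ntn4, a netrin. Robo2 had the highest peak of these, with 6.34, 6.27 and 6.21 in fibroblasts, 8.90, 8.57 and 9.05 at day 3, and 5.79, 5.88 and 5.86 in iPS cells. Over the whole list of 43, 6 genes stood at least 2-fold higher at day 3 than in fibroblasts and 14 lower, and both counts are larger shares than over all genes. Gap43, a growth cone protein that is on no list, read 6.99, 6.95 and 6.88 in fibroblasts, 10.47, 10.10 and 10.32 at day 3, and 7.34, 6.96 and 7.23 in iPS cells. Beside these genes, the log2 of the summed level of 13 neural markers ranged between 10.15 and 10.19 in fibroblasts. It ranged between 10.77 and 10.90 at day 3 and between 11.01 and 11.04 in iPS cells, and 0 of the 13 were members. Of these markers 1 stood at least 2-fold higher at day 3 than in fibroblasts and 2 lower, with a median difference of 0.15, and 9 lay below the array median at day 3, against 7 in fibroblasts. The part of neural-type cells in these values was not tested.

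Of 49 matrix genes 3 were members (6.12%), Matn2, Fbn2 and Lama2, and of 39 integrin and immunoglobulin-type adhesion genes 3 were (7.69%), Itga4, Itgb8 and Cd200r2. In the whole adhesion list, 3 genes stood at least 2-fold higher at day 3 than in fibroblasts and 10 lower. Over the whole matrix list these counts were 4 and 13. Col4a5 and Col4a6, which encode basement membrane collagen chains, were members outside that list and lie head to head on the X chromosome with 1342 bases between their starts. Col4a6 read 5.70, 5.65 and 5.70 in fibroblasts, 8.89, 8.75 and 8.94 at day 3, and 5.93, 6.02 and 5.73 in iPS cells. Col4a5 read 7.34, 7.27 and 7.25 in fibroblasts, 10.19, 9.79 and 10.08 at day 3, and 6.83, 6.69 and 6.80 in iPS cells. As the rule requires, both neighbours peaked at day 3, with differences from fibroblasts of 3.18 and 2.73. The iPS mean differed from the fibroblast mean by 0.21 for Col4a6 and by -0.52 for Col4a5. Itga4, the integrin alpha chain of the VCAM1 receptor, stood 6.86-fold above fibroblasts and 12.9-fold above iPS cells. Cd200r2, an immunoglobulin-type receptor known from myeloid cells, read 3.67, 3.79 and 3.83 in fibroblasts, 7.75, 7.15 and 7.77 at day 3, and 3.58, 3.97 and 3.73 in iPS cells. The log2 of the summed level of 16 macrophage markers ranged between 11.13 and 11.23 in fibroblasts. It ranged between 9.67 and 9.91 at day 3 and between 11.48 and 11.66 in iPS cells. Of the 16 markers, 5 lay below the array median in fibroblasts, a count that was 14 at day 3 and also 14 in iPS cells. The iPS mean was below the fibroblast mean for 13 of the 16, although the sum was higher, so a few genes carry the sum. The part of macrophages in the Cd200r2 values was not tested.

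Transporters and enzymes made up another share of the members. Mfsd2a, a carrier of lysophosphatidylcholine with omega-3 fatty acids, read 8.59, 8.66 and 8.67 in fibroblasts, 11.31, 11.39 and 11.38 at day 3, and 6.08, 5.77 and 6.50 in iPS cells. Its 37.9-fold difference from iPS cells was the largest among the members. The solute carrier family gave 10 of 379 (2.64%, where members make up 1.37% of all genes). Slc22a4, a carrier of ergothioneine, led them at 5.55-fold above fibroblasts and 6.49-fold above iPS cells. Over the whole family, 13 genes stood at least 2-fold higher at day 3 than in fibroblasts and 43 lower. Of 51 NRF2 and detoxification genes 3 were members, Akr1c14, Aldh3a1 and Mgst1, and 6 passed both folds before the names were left out. In that list, 8 genes stood at least 2-fold higher at day 3 than in fibroblasts and 7 lower. Akr1c14, a hydroxysteroid dehydrogenase, read 4.90, 4.73 and 4.80 in fibroblasts, 7.65, 6.57 and 7.81 at day 3, and 4.06, 4.34 and 3.82 in iPS cells, with its second day-3 array about 1 below the others. Aldh3a1, an aldehyde dehydrogenase, was steadier, with 5.44, 5.61 and 5.40 in fibroblasts, 7.90, 8.06 and 8.13 at day 3, and 5.90, 5.93 and 5.92 in iPS cells. The monoamine oxidases Maoa and Maob, neighbours on the X chromosome, stood 2.08-fold and 2.16-fold above fibroblasts and 2.13-fold and 5.83-fold above iPS cells.

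Some members of known pathways were grouped only after the names were seen, and they are given as values. In the Notch pathway the ligand Jag1 and the target repressors Hey1, Hey2 and Hes1 were members. Hey1 read 6.62, 6.62 and 6.60 in fibroblasts, 9.53, 9.22 and 9.85 at day 3, and 6.11, 5.92 and 5.70 in iPS cells. Hes1 stood 2.81-fold above fibroblasts and 3.99-fold above iPS cells, Jag1 2.49-fold and 6.18-fold, and Hey2 2.70-fold and 3.46-fold. In mitochondrial fatty acid and amino acid breakdown, Acadl and Acadvl, dehydrogenases of long acyl chains, stood 2.28-fold and 2.22-fold above fibroblasts. Etfdh, which passes their electrons on to ubiquinone, stood 2.86-fold above fibroblasts and 2.13-fold above iPS cells. Aass, the first enzyme of lysine breakdown, read 4.67, 4.78 and 4.68 in fibroblasts, 7.01, 6.56 and 7.11 at day 3, and 4.81, 4.78 and 5.01 in iPS cells. Mccc1 and Hibch, enzymes of leucine and valine breakdown, stood 3.59-fold and 2.71-fold above fibroblasts and 2.32-fold and 2.71-fold above iPS cells.

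Many lists held no member. None of 44 MYC target and ribosome biogenesis genes, 42 ATF4 and unfolded protein response genes, 55 WNT genes, 30 FGF genes, 27 interferon-stimulated genes or 26 cholesterol genes was a member. The MYC target list had 11 genes at least 2-fold higher at day 3 than in fibroblasts and 0 lower, but its median at day 3 lay 0.46 below iPS cells. No pluripotency, macrophage, trophoblast, endothelial, keratinocyte, smooth muscle, neural, Schwann, primitive endoderm or erythroid marker was a member, and of 16 fibroblast markers only Twist1 passed both folds, which was left out by name. Of all 273 members, 48 were on any of the lists.

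The day-3 arrays differed from each other over the members. The rule used only their mean, but a high array can lift a mean over the threshold. Without the third day-3 array 33 of the 273 members leave, so the shares below are not free of the rule. The second day-3 array was the lowest of the 3 for 212 members (77.7%), and for 31.7% of all genes. The third was the highest for 217 members (79.5%), and for 32.2% of all genes. The median member lay 0.16 below its day-3 mean on the second array and 0.14 above it on the third, whereas over all genes these medians were 0.03 above and 0.01 below. Sostdc1 followed this order, and Edn1 did so in part, being lowest on the first array. Genes that stood at least 2-fold below fibroblasts at day 3, 1511 in number, were highest on the third array in 47.4% and on the second in 31.1%. They were lowest on the second array in 44.1% and on the third in 18.9%. In scalings added after the data were seen, with quantile normalisation the second array was still the lowest for 67.0% of members and the third the highest for 56.0%, and with array medians set equal the shares were 91.2% and 89.7%. Under that last scaling all genes moved too, with 55.8% lowest on the second array and 55.5% highest on the third. The largest spreads were those of Arxes2, with 7.55, 6.41 and 7.64 at day 3, and of 8 other members whose standard deviation also exceeded 0.5. Across members the median standard deviation was 0.06 over fibroblast arrays, 0.17 over day-3 arrays and 0.13 over iPS arrays, against 0.07, 0.13 and 0.11 over all genes in the same order. For 13 members the 3 fibroblast arrays held exactly the same value, as with Lama2 (7.61) and Acadl (8.60), so their fibroblast spread is not a measure of error.

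**Figure D4:**
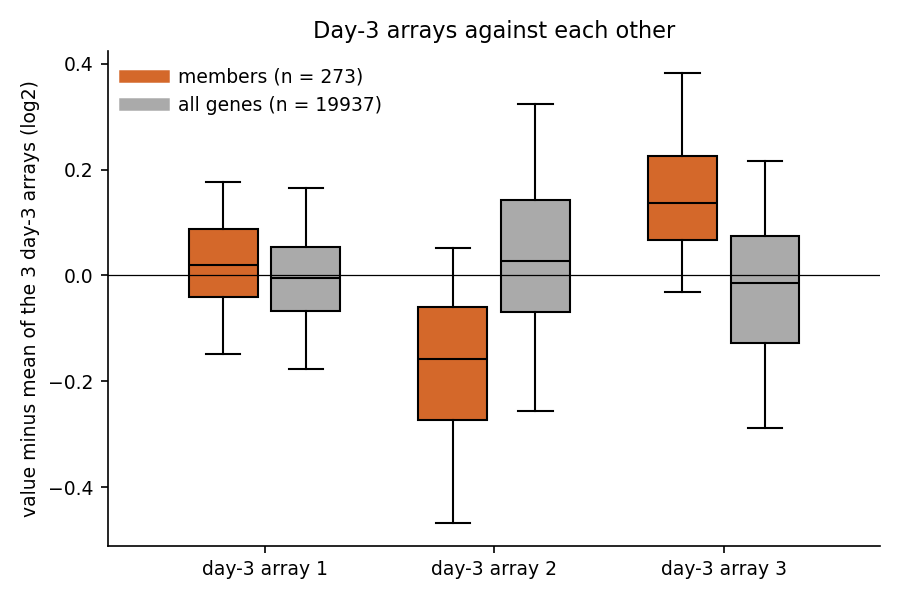
Value on each day-3 array minus the mean of the 3 day-3 arrays (log2), for the 273 members (orange) and all 19937 genes (grey). Boxes span the quartiles with the median as a line, and whiskers reach the 5th and 95th percentiles. The median member lies 0.16 below the mean on the second array and 0.14 above it on the third.

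The comparison of iPS cells with fibroblasts was not itself a criterion of the rule, and it was tested across all genes with limma. It is, however, the difference between the 2 contrasts that the rule used, on the same arrays. The choice of members therefore affects the shares below, which are given as descriptions. A gene counted as higher or lower in iPS cells at an adjusted p under 0.05 and at least a 2-fold difference. Of the 273 members 73 were lower in iPS cells (26.7%), against 13.8% of all genes, and 9 were higher (3.30%), against 7.63% of all genes. The remaining 191 were not called. The median difference was -0.34 over members and 0.05 over all genes. The iPS mean was the lower one in 189 members (69.2%), against 43.9% of all genes. These are the same 189 members whose day-3 mean lay further from iPS cells than from fibroblasts, so the count is no separate result. In 157 members (57.5%) the 3 iPS arrays lay entirely below the 3 fibroblast arrays, against 31.8% of all genes. The means of the 2 groups lay within 0.5 of each other in 137 members (50.2%), against 61.0% of all genes. Whatever the fold, 178 members (65.2%) had an adjusted p under 0.05, against 54.6% of all genes. The log2 of the summed level of 16 fibroblast markers was 13.95 to 14.10 in iPS cells and 15.81 to 15.83 in fibroblasts. Of these 16 markers, 14 were themselves lower in iPS cells. Their part in the count of lower members was not tested. Without the third fibroblast array, 9 members were higher and 72 lower in iPS cells.

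The 5 largest decreases were those of Prkar2b, Pi15, Cavin2, Cd109 and Matn2. Prkar2b, a regulatory subunit of protein kinase A, read 4.98, 5.44 and 5.59 in iPS cells and 8.98, 9.03 and 9.10 in fibroblasts, a difference of -3.70 with a standard error of 0.14 and an adjusted p of 1.06e-09. At day 3 it read 10.13, 10.03 and 10.36, only 2.20-fold above fibroblasts. Cavin2, a coat protein of caveolae, read 5.80, 5.64 and 6.05 in iPS cells and 9.01, 9.002 and 8.98 in fibroblasts, a difference of -3.17 (SE 0.10, adjusted p 2.21e-10). The protease inhibitor-like protein Pi15 differed by -3.25, the surface protein Cd109 by -3.11 and the matrix protein Matn2 by -2.96. All 5 had fibroblast means well above their iPS means and, as the rule requires, a day-3 mean higher still. Among the genes described above, Rb1 was lower in iPS cells, with a difference of -2.05 (SE 0.10, adjusted p 7.6e-09), Met by -1.94 (SE 0.12, adjusted p 3.84e-08) and Fst by -1.62 (SE 0.08, adjusted p 4.44e-09). Over whole lists, 5 of 33 immediate early genes were higher and 7 lower in iPS cells, 6 of 38 p53 and senescence genes were higher and 8 lower, and 2 of 43 axon guidance genes were higher and 23 lower. Mfsd2a, Adm, Efnb2, Lpar4, S1pr1, Jag1, Igfbp3, Ier5, Klf6 and Rgs16 were also among the 73.

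The 9 members higher in iPS cells were Slc13a5, Dclk2, Atf3, Slc25a25, Otud1, Ceacam1, Shroom3, Crym and Fetub. Slc13a5, a plasma membrane carrier of citrate, read 7.55, 7.60 and 7.65 in iPS cells and 5.60, 5.24 and 5.01 in fibroblasts, a difference of 2.32 (SE 0.13, adjusted p 1.6e-08). Its day-3 values were 8.81, 8.87 and 8.93. Dclk2, a microtubule-associated kinase, differed by 1.66 (SE 0.11, adjusted p 6.9e-08), and Atf3 by 1.46 (SE 0.10, adjusted p 1.13e-07). Slc25a25, a mitochondrial carrier of ATP-Mg, differed by 1.30 and the deubiquitinase Otud1 by 1.25. The level of these genes in iPS cells lay above fibroblasts and below day 3, as the call and the rule together require, so nothing is read from that. Among these 9 the highest peak was that of Fetub, at 2.40. Some members with higher peaks were not called. Sostdc1 differed between iPS cells and fibroblasts by 0.20 (SE 0.10, adjusted p 0.111), Gna14 by 0.17 (SE 0.13, adjusted p 0.276) and Gap43 by 0.24 (SE 0.12, adjusted p 0.109). Edn1 was 0.79 higher in iPS cells (SE 0.10, adjusted p 3.09e-05), short of 2-fold. Other members with peaks above that of Fetub were called lower in iPS cells. Their differences were -2.53 for Mfsd2a, -1.94 for Met, -1.56 for Fam110c, -1.40 for Srsy on its chosen row, -1.10 for Tmem35a and -1.08 for Rgs16.

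**Figure D5:**
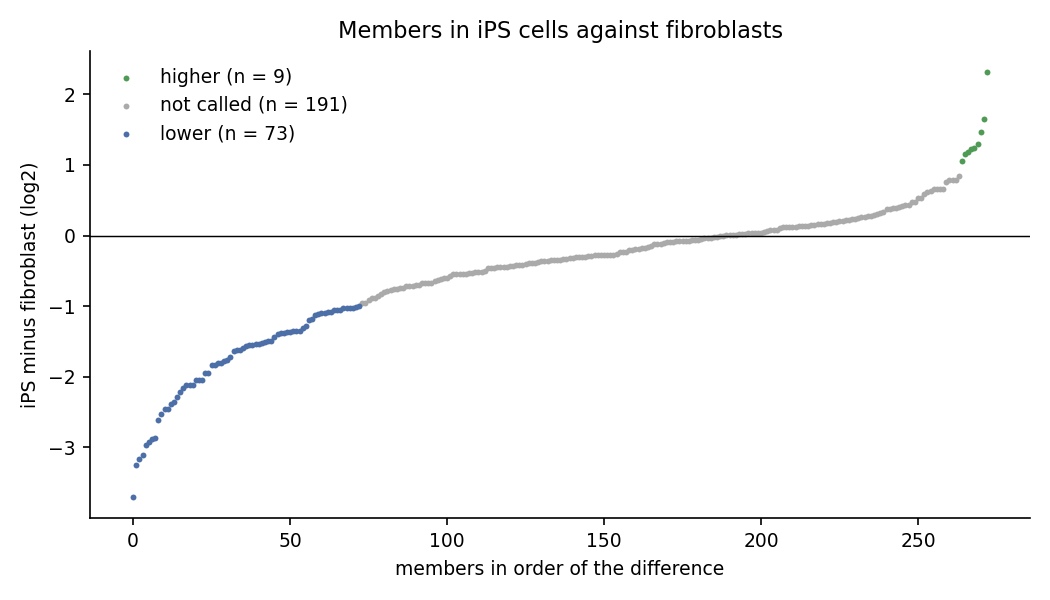
Difference iPS minus fibroblast (log2, group means) of the 273 members, placed in order of that difference, with members called higher (9), not called (191) and lower (73) in separate colours. The lowest point is Prkar2b at -3.70 and the highest is Slc13a5 at 2.32.

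At the edge of the rule, the members just inside were Csad, Stk17b, Prmt2, Fam185a and Ccn2, with peak heights of 1.00 to 1.01. Just outside were Zfand5, Itgbl1, Usp40, Mdm2 and Cnksr2, with 0.99 to 1.00. Csad read 8.87, 8.89 and 8.95 at day 3 against 7.80, 7.95 and 7.95 in iPS cells, while Zfand5 averaged 10.89 at day 3 and 9.89 in iPS cells.

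Other rows of the array for the same genes were not used by the rule. Of the 273 members 13 had 21 further rows. On 20 of these the day-3 mean lay above both other groups, and on 8 by at least 1. Srsy, described below, supplied more of the 21 rows, and of the 8, than any other member. Apart from Srsy, only Adamtsl1, Ano3 and Slf2 had a further row at least 1 above both groups. Slf2, a protein of the DNA damage response, had a further row that averaged 7.13 on fibroblast arrays, 10.12 on day-3 arrays and 8.45 on iPS arrays. For Heg1 and Celf2 the further rows stood only 0.06 and 0.25 above fibroblasts, against 1.36 on the chosen row of each. The exception below both groups was a row of Srsy, a Y-linked gene present in many near-identical copies. Srsy has 10 rows on the array, and its chosen row read 6.20, 6.26 and 5.58 in fibroblasts, 9.34, 9.43 and 9.72 at day 3, and 4.37, 5.07 and 4.40 in iPS cells. Signal from its copies cannot be assigned to one of them, and its value is uncertain.

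On the chromosomes, the members were spread over all autosomes, X and Y. Chromosome 3 held 30 of 943 measured genes (3.18%) and the X chromosome 20 of 739 (2.71%), while chromosome 7 held 8 of 1734 (0.46%). There were 11 pairs of members that lie next to each other, among them Rgs8 and Rgs16, Map2k3os and Map2k3, Rb1 and Lpar6, P2ry1 and Rap2b, Lxn and Rarres1, Maoa and Maob, Armcx4 and Armcx1, and Col4a6 and Col4a5. Lxn, a carboxypeptidase inhibitor, and Rarres1 were both lower in iPS cells than in fibroblasts, with differences of -2.88 and -1.52, as well as highest at day 3. In Maoa and Maob the iPS values parted, with a difference from fibroblasts of -0.03 for Maoa and -1.43 for Maob.

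RefSeq promoter windows, from 250 bases before to 50 after the start, were found for 220 of the 273 members, in 278 windows. Motifs were searched as exact letters on both strands. Shares are given for members' windows, for windows of genes measured on the array, and for all 32851 windows. The cAMP response element TGACGTCA shown above for Maff, Plk2 and Btg2 was in 6 members' windows (2.16%), the others being those of Slc25a25, Mlf1 and Purb, against 2.38% for measured genes and 1.79% of all windows, so its share was not above that of measured genes. The AP-1 site TGANTCA was in 5.76% of members' windows, 6.88% for measured genes and 7.81% of all. The TEAD site GGAATG was in 13.3%, 13.2% and 14.7% in the same order, the TATA box TATAAA in 10.8%, 11.5% and 13.6%, and the STAT site TTCNNNGAA in 6.47%, 7.68% and 8.30%. The E-box CACGTG was in 10.4%, 8.26% and 7.15%, and TGACNNNGC, the core of the antioxidant response element, which can overlap an AP-1 site, was in 17.3%, 13.2% and 12.4%. The GC box GGGCGG was in 58.6%, 49.3% and 35.7%. Members' windows were also richer in G and C, with a median of 59.7%, against 57.7% for measured genes and 52.7% for all. The ETS core CCGGAAGT was in 1.08% of members' windows (3 windows), 5.43% for measured genes and 3.89% of all. A match is a run of letters and not a bound site.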

How the data were processed

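Expression was measured on 9 arrays, 3 each of fibroblasts, TSKM-3D cells and iPS cells. The deposited values are log2 signals per array row, while background correction and scaling by the authors are not stated in the labels. Rows were named through the platform annotation. Of 34760 rows, 21640 had 1 symbol, and each of 19937 genes was read from its brightest row on average. The peak rule, promoter matches and counts were computed from the deposited log2 values with Python 3.11.15 and pandas 2.3.3. The contrast of iPS with fibroblasts was fitted with limma 3.58.1 in R 4.3.3 (lmFit and eBayes on all 3 groups) with Benjamini-Hochberg adjustment over all genes, and the fit was tested on simulated data. No filter on low values was applied. The 2 contrasts used by the rule have no test. The members and the lists were chosen with earlier results of these data known. Genes named were the 20 highest peaks, list and family members, 5 genes on each side of the threshold, the 5 largest called differences in each direction, the introduced factors, genes left out by name and rows that disagree; Adcy5, Gap43, neighbouring pairs, Notch and mitochondrial genes and a few more were named after their values were seen. Alternatives were other scalings, row choices, thresholds and fits, and leaving out each array.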

Additional observations from a re-analysis of the deposited data

How the results depend on the processing

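Leaving out each array in turn gave 243 to 314 members, with 8 to 11 higher and 66 to 77 lower in iPS cells than in fibroblasts. The lowest count came without the third day-3 array (240 shared with the 273; Maoa, Maob, Igfbp3, Dclk2 and Ccn2 are among the 33 that leave) and the highest without the second (270 shared). With the third fibroblast array placed with TSKM-3D, as its cell type label has it, 142 members remained, with 0 higher (limma, and 0 also at an unadjusted p under 0.05) and 25 lower in iPS cells, with 2 fibroblast arrays left. A threshold of 1.5 on the log2 scale gave 112 members, and applied to the iPS comparison 2 higher and 43 lower. The limma test against a 2-fold change (treat) called 4 higher and 52 lower. Scaling, row choice and a filter on dim rows gave 261 to 311 members. Members leave under these, 15 of the 273 with array medians set equal (among them Adm, Map2k3, Prmt2 and Stk17b), 7 with quantile normalisation (among them Hmgb3, Csad and Fam185a), 6 with the mean of all rows (among them Heg1 and Celf2), 4 with the row chosen on the fibroblast and iPS arrays (Srsy, Purb, Usp31 and Phf20l1) and 12 with the filter. The difference of Srsy between iPS cells and fibroblasts reversed to 0.71 when the row highest on the fibroblast and iPS arrays was taken. Setting array medians equal moved the median of all genes in iPS minus fibroblast to -0.12 and in day 3 minus iPS to 0.13. Replicate numbers are shared by the groups, but same-numbered arrays did not deviate together (correlations -0.098 to 0.062), and the fit with the replicate block called 9 higher and 73 lower, 82 of 82 calls shared. With 3 arrays a group and no measure of background, how far dim rows carry signal is not known here.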
